A study of Mus musculus with 2 samples.

Results

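The genes described here are the 7 core genes of MHC class II antigen presentation in the mouse, Cd74, H2-Aa, H2-Ab1, H2-Eb1, H2-DMa, H2-DMb1 and Ciita. They were found by symbol, and all 7 were present among the 31253 genes of the deposited count tables. The study measured single-cell RNA in the L4-5 dorsal root ganglia, which hold the cell bodies of the sensory neurons of the lower back and hind limb. The 2 libraries, replicates 1 and 2, came from wild-type adult mice of 8 weeks that had received acetone-ether-water, a skin treatment used as a model of dry skin itch. This was the only group, with no untreated ganglia, so every comparison below is between cell classes within treated ganglia and none is a response to the treatment. The labels do not say that the libraries came from separate animals, so the p-values cannot be read as covering the spread between animals. They rest on how differences between cell classes varied between these 2 libraries, pooled over all classes tested together. The overall difference between the libraries was removed beforehand. The cells were released with Liberase and papain at 37 °C before capture, and the cell type given in the labels is neuron, although most captured cells were not neurons.

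MHC class II molecules present fragments of proteins taken up by a cell to CD4 T cells. H2-Aa and H2-Ab1 encode the alpha and beta chains of the I-A molecule, and H2-Eb1 the beta chain of I-E. Cd74, the invariant chain, fills the groove of a new molecule and guides it to the endosome, where cathepsins cut it down to a short peptide. H2-DMa and H2-DMb1 encode the H2-DM dimer, which removes that peptide and lets antigen peptides bind. Ciita is the coactivator that turns on the whole set by joining the RFX, CREB and NF-Y factors on the X and Y boxes of class II promoters. In peripheral nerve and ganglia, class II is best known from resident macrophages, and it can be induced by interferon gamma in Schwann and endothelial cells.

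Of the 7 genes, 6 have their place on chromosomes 16 and 17 given here (mouse build GRCm38, GENCODE mouse release 21). Ciita lies at chr16:10480059-10528418 on the plus strand. The other 5 lie in the class II region of chromosome 17, in the order H2-DMa (chr17:34119541-34139101, plus), H2-DMb1 (chr17:34153072-34160230, plus), H2-Ab1 (chr17:34257689-34269419, plus), H2-Aa (chr17:34282744-34287823, minus) and H2-Eb1 (chr17:34305867-34316674, plus). The promoters of 3 of them are shown to look for the X and Y boxes through which Ciita acts, for H2-Aa and H2-Eb1, whose levels ran together over the cell classes, and for H2-DMb1, which in Schwann cells did not follow them. Each is the RefSeq window (build GRCm38.p6) from 250 bases before to 50 bases after a gene start, printed on the strand of the gene. They lie at chr17:34287774-34288073 (minus) for H2-Aa, chr17:34305617-34305916 (plus) for H2-Eb1 and chr17:34152941-34153240 (plus) for H2-DMb1. Capitals mark the Y box core TGATTGG (reverse strand CCAATCA) and the X box-like run GNAACTGATGATG (reverse strand CATCATCAGTTNC), the bases that H2-Eb1 and H2-DMb1 share there, with N where they differ.
H2-Aa: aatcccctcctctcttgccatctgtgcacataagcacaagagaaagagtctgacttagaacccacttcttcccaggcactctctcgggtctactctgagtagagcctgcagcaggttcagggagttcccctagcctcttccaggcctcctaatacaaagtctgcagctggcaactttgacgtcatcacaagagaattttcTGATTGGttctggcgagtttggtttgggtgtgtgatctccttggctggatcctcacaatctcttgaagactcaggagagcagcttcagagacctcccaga
H2-Eb1: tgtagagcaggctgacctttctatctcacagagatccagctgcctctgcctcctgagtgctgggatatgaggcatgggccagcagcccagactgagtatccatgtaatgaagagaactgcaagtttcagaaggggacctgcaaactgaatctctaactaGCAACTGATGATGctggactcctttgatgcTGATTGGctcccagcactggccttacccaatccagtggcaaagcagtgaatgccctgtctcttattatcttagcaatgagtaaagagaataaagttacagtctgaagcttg
H2-DMb1: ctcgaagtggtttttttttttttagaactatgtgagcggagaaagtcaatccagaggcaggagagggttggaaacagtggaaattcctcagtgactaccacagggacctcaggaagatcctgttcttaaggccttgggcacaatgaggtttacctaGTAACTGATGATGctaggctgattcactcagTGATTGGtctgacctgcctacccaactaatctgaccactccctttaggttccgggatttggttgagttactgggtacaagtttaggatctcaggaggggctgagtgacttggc

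The first base of the Y box stood 50, 61 and 63 bases before the start of H2-Aa, H2-Eb1 and H2-DMb1. The X box-like run began 91 and 94 bases before the start in H2-Eb1 and H2-DMb1, and its letters were not in the H2-Aa window. The run was written from the windows of H2-Eb1 and H2-DMb1, so finding it in them was given beforehand. Its absence from H2-Aa or another window does not mean that an X box is lacking there. The Y box core, searched on both strands, was in 2568 of the 32851 RefSeq promoter windows of this length (7.82%), among them the windows of 7 class II genes (these 3, H2-DMb2, H2-Eb2, H2-Oa and H2-Ob). The X box-like run was in 8 windows (0.0244%), which included those of H2-Eb1 and H2-DMb1. The 2 motifs do not overlap in these windows, and their letters were chosen after the windows had been seen. Neither was in the 2 windows of H2-DMa (chr17:34122582-34122881 and chr17:34125268-34125567, plus). The table held windows for 4 of the 7 genes, and none is shown for Cd74, H2-Ab1 or Ciita.

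The 2 libraries held 113251556 and 102347251 UMIs (counted RNA molecules) in 8818 and 11767 barcodes, of which 7774 and 10270 were kept as cells, and 24 barcodes occurred in both libraries. Cells were grouped by clustering without the class II genes and named from markers, so that each class name below stands for cells like that type. A first round gave neurons (666 cells in replicate 1 and 1214 in replicate 2), satellite glia, the glia that wrap neuron bodies (2686 and 2108), myelinating (1050 and 635) and non-myelinating Schwann cells (504 and 513), endothelial (360 and 759) and mural vessel cells (304 and 411) and fibroblasts. Immune cells were macrophages (197 and 288), B cells (50 and 78), neutrophils (43 and 57), dendritic cells (25 and 43), T or NK cells (18 and 59), monocytes (17 and 29) and mast cells (3 and 8). Another 1501 and 3383 cells were left without a name. Levels are UMIs per 10000 UMIs of a class, and differences are log2 differences with their standard error from edgeR's quasi-likelihood test on the UMIs summed per class and library, with p-values adjusted over 13208 genes by Benjamini-Hochberg.

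Immune cells held 81.8% and 80.7% of the class II UMIs of the libraries, with the highest levels in dendritic cells, then macrophages, B cells and monocytes. The summed level of the 7 genes was 375 in replicate 1 and 591 in replicate 2 in dendritic cells (483 ± 153, SD, n = 2 libraries). It was 274 and 208 in macrophages (241 ± 46.5), 61.0 and 98.4 in B cells (79.7 ± 26.4) and 48.9 and 49.0 in monocytes. The libraries of neighbouring classes in this order did not overlap. Cycling cells, which pooled several lineages, followed at 10.2 and 26.3, and the unnamed cells at 3.86 and 2.42. Without the cells that held a C1q, Cd79 or Ptprc UMI these fell to 0.156 and 0.248 in cycling cells and 0.353 and 0.514 in unnamed cells. A cluster of 96 and 70 unnamed cells, with C1qa at 32.5 and 33.6, was at 108 and 147. Macrophages alone held 60.6% and 46.6% of the 44044 and 55226 UMIs of the 7 genes in the libraries, and dendritic cells 18.1% and 29.5%.

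Below these, no named class passed a summed level of 3. The highest of them were myelinating Schwann cells at 2.15 and 0.921, followed by T or NK cells at 0.441 and 1.42 and endothelial cells at 0.625 and 0.387. Non-myelinating Schwann cells (0.375 and 0.499), neutrophils (0.0593 and 0.624), mural cells (0.335 and 0.322) and neurons (0.242 and 0.363) came lower. Fibroblasts (0.192 and 0.307), erythroid (red blood) cells (0.0782 and 0.348) and satellite glia (0.167 and 0.232) followed. From myelinating Schwann cells down to satellite glia the libraries of each neighbouring pair in this order overlapped, but those of classes further apart did not always. Non-myelinating Schwann cells and mural cells, with neutrophils between them, did not overlap. Neither myelinating Schwann cells nor endothelial cells overlapped satellite glia. The 7 genes had no UMI in the 11 mast cells, a level at least 365-fold below that of macrophages (against a floor of 3 counts over both libraries).

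**Figure D1:**
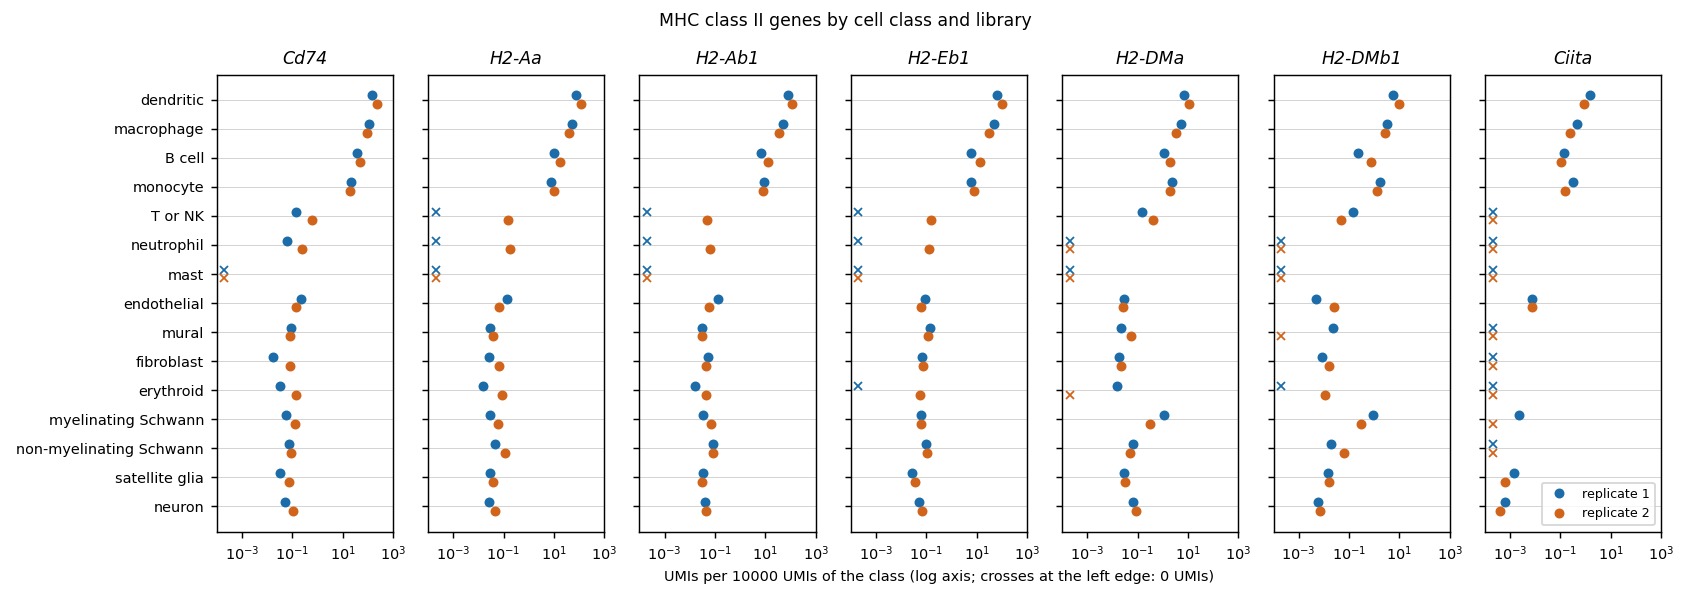
Level of each of the 7 genes (UMIs per 10000 UMIs of the class, log axis) in 15 cell classes, 1 point for each library (blue for replicate 1, orange for replicate 2, crosses for 0 UMIs). Dendritic cells and macrophages lie to the right for every gene. H2-DMa and H2-DMb1 are also raised in myelinating Schwann cells, at 1.07 and 0.897 in replicate 1, and their H2-DMb1 (0.897 and 0.291) overlaps that of B cells (0.216 and 0.777).

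Macrophages were compared with endothelial cells to set a professional antigen presenting class against a vessel class of the same ganglia. All 7 genes were higher in macrophages, where 17.3% of all genes were higher. Their median log2 difference was 9.03, and that of all genes −0.007. Cd74 was at 109 and 97.3 in macrophages against 0.226 and 0.145 in endothelial cells, a log2 difference of 9.27 ± 0.47 (edgeR, adjusted p = 2.89e-13). H2-Eb1 stood at 50.1 and 31.1 against 0.0924 and 0.0607 (9.24 ± 0.46). H2-Aa (9.03 ± 0.48) and H2-Ab1 (9.03 ± 0.44) differed by about the same, and the libraries of the classes did not overlap for any of the 7 genes. The differences of the peptide loading genes were smaller, 7.41 ± 0.52 for H2-DMa and 7.67 ± 0.57 for H2-DMb1. Ciita, with 46 and 30 UMIs in macrophages against 3 and 4 in endothelial cells, differed by 5.66 ± 0.55 (edgeR, adjusted p = 1.03e-07).

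Dendritic cells had the highest level of every one of the 7 genes, and 4 of the 7 were higher than in macrophages by the test, against 3.76% of all genes. Ciita differed most among those called, at 1.46 and 0.871 in dendritic cells (31 and 24 UMIs) against 0.471 and 0.242 in macrophages (log2 difference 1.78 ± 0.42, edgeR, adjusted p = 0.0132). H2-DMb1 was at 5.54 and 9.98 against 3.31 and 2.78 (1.43 ± 0.39, edgeR, adjusted p = 0.0244). H2-Ab1 was at 77.9 and 116 against 51.5 and 34.9 (1.20 ± 0.31, edgeR, adjusted p = 0.0174), and H2-Eb1 at 67.1 and 97.7 against 50.1 and 31.1 (1.04 ± 0.32, edgeR, adjusted p = 0.0493). The libraries did not overlap for any of the 4. Cd74 (142 and 238 against 109 and 97.3, log2 difference 0.85 ± 0.33), H2-Aa (1.03 ± 0.34) and H2-DMa (1.10 ± 0.37) had adjusted p of 0.151, 0.0737 and 0.0792 by edgeR. Within replicate 1 alone the median difference of the 4 called genes was 0.68 and within replicate 2 alone 1.89. The number called fell to 1 without the library as a block, and was 7 against the macrophages of the sub-cluster that both libraries shared.

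B cells carried the same genes at a lower level. All but Ciita were lower than in macrophages by the test, 6 of 7, against 8.19% of all genes. Cd74 was at 36.9 and 51.4 in B cells and was the gene that differed least among those called (log2 difference −1.70 ± 0.34, edgeR, adjusted p = 0.0011). H2-Ab1 was at 6.64 and 13.4 (−2.55 ± 0.33), H2-Aa at 9.88 and 17.2 (−2.27 ± 0.36), H2-Eb1 at 6.13 and 13.7 (−2.51 ± 0.34) and H2-DMa at 1.08 and 1.87 (−1.92 ± 0.46). H2-DMb1 was lowest against macrophages, at 0.216 and 0.777 (−2.92 ± 0.60, edgeR, adjusted p = 0.0016). In no gene did the libraries of B cells and macrophages overlap. Ciita had 2 UMIs in each library of B cells (−1.90 ± 0.70, edgeR, adjusted p = 0.0981). The median of the 6 called genes was −3.11 within replicate 1 and −1.59 within replicate 2.

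The neutrophils, phagocytes that are not known as class II presenting cells, served as an immune class of low level. All 7 genes were lower than in macrophages by edgeR's test, against 8.08% of all genes. Over both libraries, 5 UMIs of Cd74 gave a level 673-fold below that of macrophages (counting interval 288 to 2073), 3 UMIs of H2-Aa 494-fold (169 to 2396) and 2 UMIs of H2-Eb1 649-fold (180 to 5363). No UMI of H2-DMa, H2-DMb1 or Ciita was found, levels at least 46.7-fold, 33.0-fold and 3.76-fold lower. The size of the Cd74 difference changed with the cell filters and the clustering. Its log2 difference was −9.37 here, and −6.50 with at least 1000 genes per cell, −6.58 with no doublets removed and −6.60 at clustering resolution 0.5. In those settings neutrophils of replicate 1 held 70 or 71 UMIs of the 7 genes in place of 1. The neutrophil class used here leaves out a cluster of 18 and 34 cells led by Camp, Ngp and Ltf. That cluster scored highest for neutrophils but was left unnamed, and its summed level was 4.90 and 0.666. The folds above therefore do not cover those cells, and whether the other settings took them in was not tested. T or NK cells, with 14 UMIs of Cd74 in all, were at 0.147 and 0.636 for that gene. These intervals cover counting error only.

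**Figure D2:**
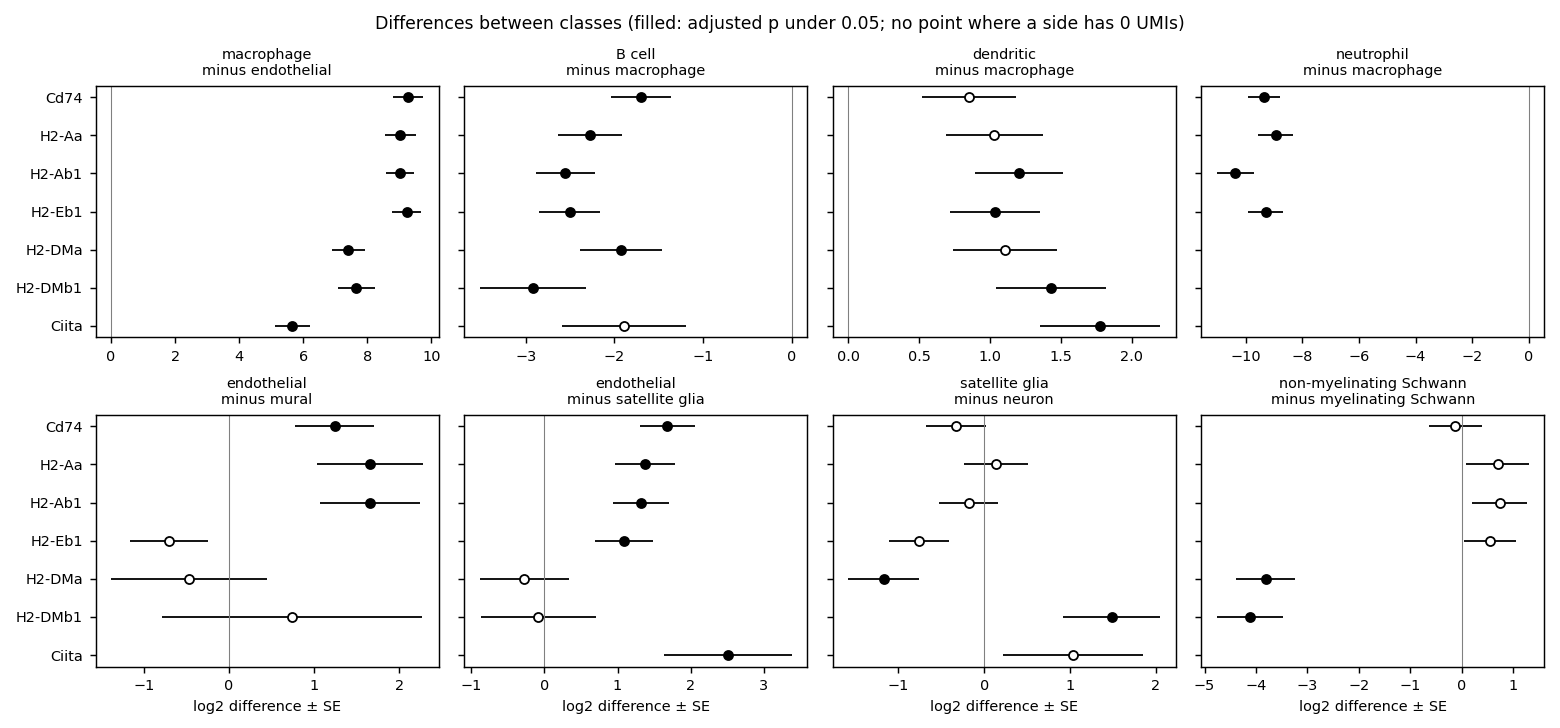
Log2 difference with its standard error for each of the 7 genes in 8 comparisons between classes (n = 2 libraries a class), filled where the adjusted p was under 0.05. The genes lie on 1 side of 0 in the comparisons with macrophages, while in the Schwann cell comparison H2-DMa (−3.81) and H2-DMb1 (−4.12) stand apart from the other genes.

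The proportions of the genes differed between the presenting classes less than their levels. For 1 UMI of H2-Ab1 there were 1.05 and 1.09 UMIs of H2-Aa in macrophages, 0.954 and 1.01 in dendritic cells and 1.49 and 1.28 in B cells. Cd74 stood at 2.24 and 1.68 UMIs for each UMI of H2-Aa and H2-Ab1 together in B cells, against 1.03 and 1.33 in macrophages and 0.931 and 1.02 in dendritic cells. B cells thus held more invariant chain RNA for each I-A chain UMI than the other 2 classes in both libraries, with no overlap. H2-DMa and H2-DMb1 together held 8.25 and 8.43 UMIs for 100 UMIs of the I-A chains in macrophages. In dendritic cells they held 8.12 and 8.89 and in B cells 7.86 and 8.66, 3 ranges that overlap. Monocytes had 23.9 and 17.7. H2-DMb2, the other H2-DM beta chain, is left out of these ratios. It had 19 and 45 UMIs in B cells, against 3 and 15 of H2-DMb1. In dendritic cells it had 18 and 40 against 118 and 275, and in macrophages 2 and 0. The overlap thus holds only for the chains counted. Across the 15 classes, the log levels of Cd74, H2-Aa, H2-Ab1 and H2-Eb1 correlated at r of 0.990 to 0.999. H2-DMa and H2-DMb1 correlated at 0.983 with each other and less with Cd74 (0.943 and 0.910). These r describe class means that share the same 2 libraries.

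**Figure D3:**
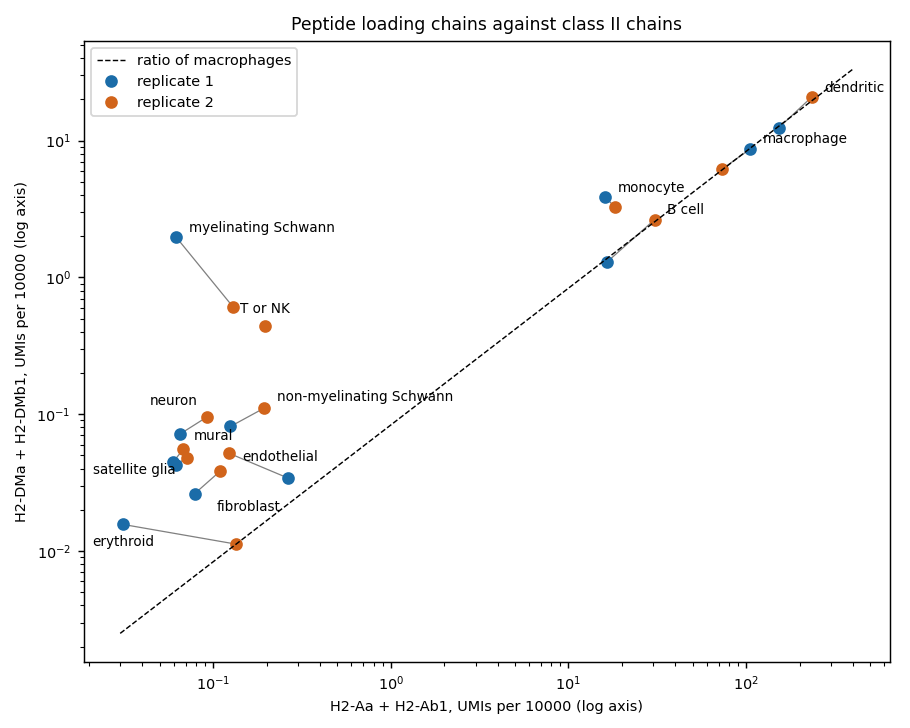
Summed level of H2-DMa and H2-DMb1, without H2-DMb2, against that of H2-Aa and H2-Ab1 (UMIs per 10000, both axes log). There is 1 point a class and library, with the macrophage ratio as a dashed line. Dendritic cells, macrophages and B cells lie along the line, and myelinating Schwann cells lie far above it, with 3178 and 464 H2-DM UMIs for 100 of H2-Aa and H2-Ab1.

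Cells within a class were not alike. With each cell thinned to 2000 UMIs, the median dendritic cell held 83 UMIs of the 7 genes in replicate 1 and 124 in replicate 2. Macrophages had medians of 52 and 29, with 6.99% and 8.83% of cells at 0 and the highest cells at 171 and 163. The B cells were of 2 kinds. Those led by Ms4a1 and Ighd, genes of mature B cells (29 and 54 cells), had a summed level of 90.98 and 137, and those led by Rag1 and Vpreb3, genes of B cell precursors (21 and 24 cells), 8.36 and 10.2. Of the precursor-like cells, 61.1% and 63.2% had no class II UMI at this depth, against 3.57% and 2.13% of the mature-like ones. In monocytes the class level rested on few cells. Of 17 and 26 thinned monocytes, 10 and 13 held no UMI and 3 in each library held 20 or more.

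**Figure D4:**
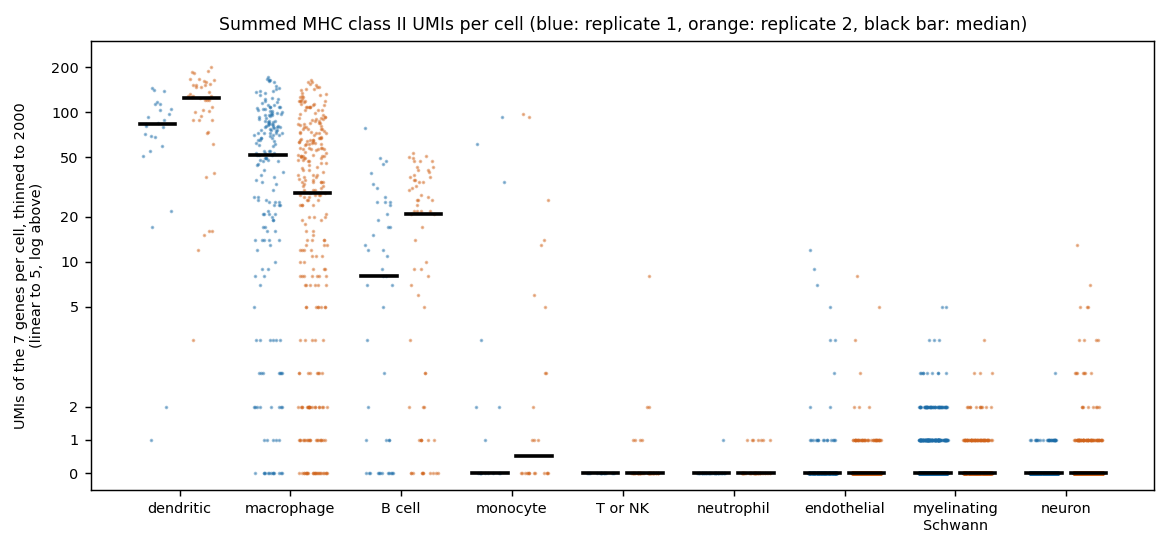
Summed UMIs of the 7 genes in each cell after thinning to 2000 UMIs (linear to 5, log above), by class and library, with the median as a black bar. Dendritic cells have medians of 83 and 124, macrophages spread from 0 to 171, and nearly all T or NK cells and neutrophils lie at 0 or 1.

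Macrophages formed sub-clusters that the libraries did not share evenly. The sub-cluster led by Maf, Stab1 and Cx3cr1, genes of resident macrophages, held 130 cells of replicate 1 and 5 of replicate 2, at summed class II levels of 303 and 81.3. The sub-cluster led by the inflammatory genes Il1a, Cxcl1 and Cxcl2 held 1 and 182 cells, and its level in replicate 2 was 245. The sub-cluster found in both libraries, led by Bmp2, Jun and Atf3 (53 and 101 cells), was at 226 and 149. Because the first 2 were each almost wholly of 1 library, their difference cannot be told apart from a difference between the libraries. Among dendritic cells, those led by Cd209a and Flt3 (23 and 39 cells) were at 390 and 627. The few led by Siglech, a gene of plasmacytoid dendritic cells (2 and 4 cells), were at 88.9 and 97.1.

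In the vessel wall, the class II genes were low but not even. Endothelial cells were compared with mural cells, the pericytes and smooth muscle around them, and 3 of the 7 genes were higher in endothelial cells, against 17.2% of all genes. Cd74 was at 0.226 and 0.145 against 0.0893 and 0.0804 (log2 difference 1.24 ± 0.47, edgeR, adjusted p = 0.0425). H2-Aa was at 0.136 and 0.0643 against 0.0298 and 0.0371 (1.66 ± 0.62, edgeR, adjusted p = 0.0428), and H2-Ab1 at 0.129 and 0.0589 against 0.0298 and 0.0309 (1.66 ± 0.58, edgeR, adjusted p = 0.0308). The libraries did not overlap in any of the 3, and replicate 1 was the higher of the endothelial pair each time. The median of the 3 was 2.05 within replicate 1 and 0.91 within replicate 2. None of the 3 passed the test once cells with a UMI of C1q, Cd79 or Ptprc, markers of macrophages, B cells and leukocytes, were left out of the classes outside the immune cells, or when no doublets were removed. The differences stayed of about the same size or grew, at 1.05 and 1.99 for Cd74, 1.57 and 1.79 for H2-Aa and 1.54 and 1.91 for H2-Ab1 under these settings in turn.

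H2-Eb1 did not follow the other chains in mural cells. It had 19 UMIs in each library of mural cells (0.141 and 0.118), against 38 and 34 in endothelial cells (0.0924 and 0.0607), a log2 difference of −0.70 ± 0.46 that did not pass (edgeR, adjusted p = 0.26). H2-Ab1 had 4 and 5 UMIs there. Mural cells thus held 4.75 and 3.80 UMIs of H2-Eb1 for each of H2-Ab1, where macrophages held 0.972 and 0.892. In the mural cluster led by the pericyte genes Kcnj8 and Abcc9, H2-Eb1 was at 0.281 and 0.144, and in the cluster led by the smooth muscle genes Acta2 and Myh11 at 0.0494 and 0.0896. Without the cells that held a C1q, Cd79 or Ptprc UMI, mural H2-Eb1 stood at 0.109 and 0.116.

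The endothelial UMIs were unevenly spread over vessel types. Venous-like cells, led by the leukocyte adhesion genes Selp, Sele and Vcam1 (13 and 42 cells), had a summed class II level of 14.9 and 1.84. Arterial-like cells (31 and 47 cells) were at 0.137 and 0.155, and the remaining endothelial cells, which no vessel markers named, at 0.466 and 0.346. Of the venous-like cells, 11 of 13 had a UMI of the 7 genes in replicate 1 (84.6%, with exact Clopper-Pearson bounds at 95% of 54.6 and 98.1) and 16 of 42 in replicate 2 (38.1%, 23.6 to 54.4). The shares in arterial-like cells were 12.9% (3.63 to 29.8) and 10.6% (3.55 to 23.1), although their median depth, 11140 and 6130 UMIs, was above that of venous-like cells (3610 and 4005). The venous-like cells held 2 and 1 UMIs of Ciita, none of Ptprc or Cd79 and 0 and 4 of C1q. Their Siglech level was 0.557 in replicate 1 and 0 in replicate 2. That gene was at 6.55 and 23.4 in the plasmacytoid-like dendritic cells and at 1.05 and 1.10 in the shared macrophage sub-cluster. Whether RNA of such immune cells added to the class II level of the venous-like cells was not tested. A single cell held 27.5% and 25.0% of the class II UMIs of the venous-like cells. Without the cells that held a C1q, Cd79 or Ptprc UMI the level was 14.9 and 1.88, and among the 6 and 10 cells with no UMI of any macrophage or B cell marker it was 16.3 and 0.559.

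Against satellite glia, 5 of the 7 genes were higher in endothelial cells, where 25.1% of all genes were higher. Cd74 in satellite glia was at 0.0338 and 0.0762 (log2 difference 1.68 ± 0.37, edgeR, adjusted p = 0.0006). H2-Aa (1.37 ± 0.42), H2-Ab1 (1.33 ± 0.38), H2-Eb1 (1.09 ± 0.40) and Ciita (2.51 ± 0.87, from 7 UMIs in endothelial cells and 4 in satellite glia) also passed, and the libraries did not overlap in any of the 5. H2-DMa and H2-DMb1 did not pass, at −0.28 and −0.08. The median of the 5 was 1.70 within replicate 1 and 0.70 within replicate 2, and 2 of the 7 passed when no doublets were removed. The differences were then no smaller, at 2.22 for Cd74, 1.83 for H2-Aa, 1.63 for H2-Ab1, 1.47 for H2-Eb1 and 2.74 for Ciita. The summed level of 8 macrophage markers was 0.131 and 0.294 in endothelial cells against 0.0912 and 0.0990 in satellite glia, and none of the 8 was at 0 in either class. That of 6 B cell markers was 3.65 and 3.70 against 0.177 and 0.336, of which Ebf1, found in mural cells too, made up 3.59 and 3.66 against 0.172 and 0.318. For 100 UMIs of Cd74 there were 15.1 and 114 UMIs of C1q in endothelial cells and 186 and 71.8 in satellite glia. Macrophages held 142 and 134. Without the cells that held a C1q, Cd79 or Ptprc UMI the same 5 genes passed, with Cd74 at 1.77 and H2-Aa at 1.55.

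Among the glia, myelinating Schwann cells, which form the myelin of large axons, had both H2-DM genes well above the other glia, while the other class II genes lay at the low level of the other glia. H2-DMa had 467 and 60 UMIs there, a level of 1.07 and 0.312, against 10 and 7 UMIs in non-myelinating Schwann cells, the glia of small axons (0.0626 and 0.0485). H2-DMb1 had 391 and 56 UMIs (0.897 and 0.291) against 3 and 9 (0.0188 and 0.0624). The libraries did not overlap for either gene. Both were lower in non-myelinating cells, by −3.81 ± 0.57 for H2-DMa (edgeR, adjusted p = 2.96e-05) and −4.12 ± 0.64 for H2-DMb1 (edgeR, adjusted p = 4.81e-05), where 6.75% of all genes were lower. The other 5 genes did not pass. Cd74 had 24 UMIs in each library of myelinating cells and was at 0.0551 and 0.125 against 0.0751 and 0.0901, a log2 difference of −0.13 ± 0.51. H2-Aa had 13 and 12 UMIs, H2-Ab1 14 and 13, and Ciita 1 and 0.

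Replicate 1 was the higher library for H2-DM in myelinating Schwann cells by 3.43 times for H2-DMa and 3.08 times for H2-DMb1. In macrophages the same ratios were 1.60 and 1.19, and in neurons H2-DMa was at 0.750. The median difference of the 2 genes from non-myelinating cells was −4.91 within replicate 1 and −2.41 within replicate 2. Both clusters of myelinating cells carried the genes. In the cluster led by Pou3f1 and Cldn19, H2-DMa was at 0.880 and 0.174 and H2-DMb1 at 0.688 and 0.191. In the cluster led by Ncmap and Slc36a2 they were at 1.22 and 0.545, and at 1.06 and 0.461.

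**Figure D5:**
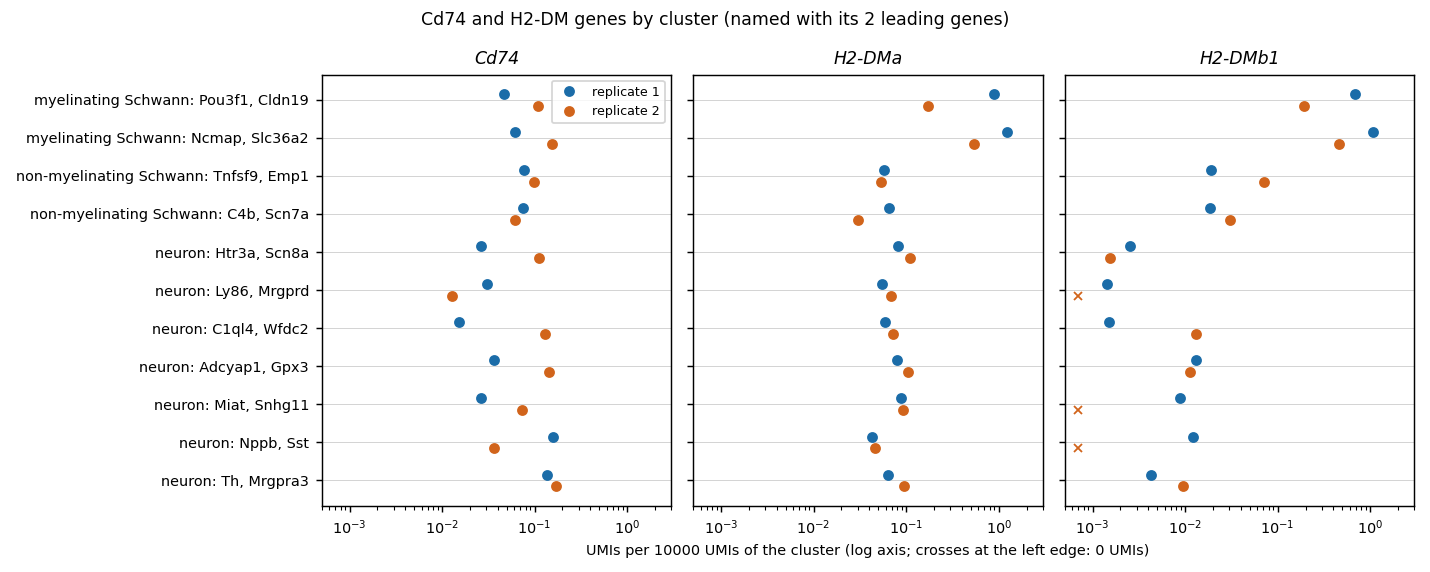
Level of Cd74, H2-DMa and H2-DMb1 (UMIs per 10000 UMIs of the cluster, log axis) in the clusters of Schwann cells and neurons, 1 point a library, each cluster named with its 2 leading genes. The 2 clusters of myelinating Schwann cells have H2-DMa from 0.174 to 1.22 and H2-DMb1 from 0.191 to 1.06, above all other clusters shown, while their Cd74 lies among the others.

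The H2-DM genes were found in a minority of myelinating Schwann cells, with a UMI of either gene in 30.3% and 9.76%. No single cell held most of their UMIs. H2-DMa had a UMI in 242 of 1050 cells in replicate 1 and in 43 of 635 in replicate 2, and no cell held more than 10. At 2000 UMIs per cell the shares were 12.7% (exact Clopper-Pearson 95% interval 10.7 to 15.03) and 4.95% (3.29 to 7.13). They were 0.922% and 1.04% in non-myelinating cells and 0.496% and 0.917% in satellite glia thinned to the same depth. Before thinning, median depths were 3540 and 2777 UMIs in myelinating cells, 3018 and 2696 in non-myelinating cells and 7562 and 7226 in satellite glia. H2-DMb1 was in 9.73% (7.91 to 11.8) and 3.67% (2.26 to 5.61) of thinned myelinating cells. Both genes were found together in 109 and 16 cells. Of the cells with either gene, 301 of 318 and 56 of 62 held no UMI of Cd74, H2-Aa or H2-Ab1, shares of 94.7% and 90.3%, against 2.94% and 6.14% of the macrophages with either gene and none of the dendritic cells. The shares were of the same order in the other glia, 92.3% and 73.3% in non-myelinating Schwann cells (12 of 13 and 11 of 15 cells) and 88.0% and 88.9% in satellite glia.

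Leukocyte markers, doublets and neighbouring genes were looked at beside this result. Without the cells that held a UMI of C1q, Cd79 or Ptprc, myelinating Schwann cells were at 1.04 and 0.314 for H2-DMa and 0.888 and 0.286 for H2-DMb1, nearly the same as with them. When no doublets were removed, 6 of the 7 genes were lower in non-myelinating cells and the summed level of myelinating cells was 7.89. The part of Brd2 reads in the H2-DMa counts was not tested. H2-DMa overlaps Brd2 on the opposite strand by 3094 bases, and Brd2 was at 1.37 and 1.86 in myelinating and 1.56 and 2.19 in non-myelinating cells. H2-DMb1 has a near copy, H2-DMb2, between which reads can be split, and H2-DMb2 had no UMI in either Schwann cell class. The 9 genes of class I presentation went the other way. All 9 were higher in non-myelinating cells, where 8.49% of all genes were higher, with a median log2 difference of 2.68 against 0.01 over all genes. Psmb8, an immunoproteasome subunit, differed by 3.93 ± 0.35, the class I heavy chains H2-K1 by 3.04 ± 0.29 and H2-D1 by 2.82 ± 0.30, and the peptide transporter Tap2 by 2.66 ± 0.26.

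Neurons held few class II UMIs for their depth, and the chain that stood out was H2-DMa. Neurons had 439 and 451 of its UMIs, 23.1% and 27.4% of all those in the libraries, but they also held 58.6% and 49.98% of all UMIs of any gene. Its level was 0.0661 and 0.0882, above satellite glia at 0.0277 and 0.0326 (satellite glia minus neurons −1.17 ± 0.41, edgeR, adjusted p = 0.0159). H2-DMb1 went the other way, at 0.0056 and 0.0068 in neurons against 0.0150 and 0.0156 (1.48 ± 0.57, edgeR, adjusted p = 0.0259). The libraries did not overlap for either gene, the other 5 did not pass, and 32.9% of all genes were lower and 32.5% higher in this comparison. The neuron level of H2-DMa lay just above that of non-myelinating Schwann cells (0.0626 and 0.0485). With DESeq2 neither of the 2 genes was called. In the 21 and 54 neurons that held no macrophage or B cell marker UMI, both differences changed sign, to 0.54 for H2-DMa and −0.24 for H2-DMb1 (edgeR, adjusted p = 0.869 and 0.952). Brd2, which overlaps H2-DMa, had 6918 and 5832 UMIs in neurons (1.04 and 1.14) and was at 0.922 and 1.22 in satellite glia. The part of Brd2 reads in the H2-DMa counts of neurons was not tested.

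H2-DMa was spread more evenly over neurons than Cd74. Over 14 sums of 7 neuron clusters in 2 libraries its level ran from 0.0427 to 0.110, a range of 2.58 times, with a median of 0.0756. Cd74 ran from 0.0128 to 0.170, a range of 13.2 times. Without the neurons that held a C1q, Cd79 or Ptprc UMI, 439 of 666 and 839 of 1214 cells were left. H2-DMa was then at 0.0629 and 0.0886, as before, while Cd74 was at 0.0253 and 0.0334 instead of 0.0512 and 0.107. For every 100 UMIs of the I-A chains, neurons held 110 and 103 UMIs of H2-DMa and H2-DMb1. Satellite glia held 68.9 and 67.9 and macrophages 8.25 and 8.43. At 2000 UMIs per cell, H2-DMa was in 0.755% and 1.94% of neurons (42.2% and 26.8% before thinning, at median depths of 95780 and 34530 UMIs), and in 0.714% and 1.26% of mural cells (4106 and 3717 UMIs), so no difference in share is read at that depth. H2-DMb2 had 30 and 46 UMIs in neurons, of which 26 and 36 were in the cluster led by Adcyap1, Tac1 and Trpv1, genes of peptidergic nociceptors.

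Other genes of the pathway also differed between the presenting cells. H2-DMb2, H2-Oa and H2-Ob, the second H2-DM beta chain and the chains of H2-O, which restrains H2-DM, were the 3 tested genes of the other class II chains. All 3 were higher in B cells than in macrophages (log2 differences 7.23, 4.74 and 4.36), where 3.18% of all genes were higher. They were also higher in dendritic cells than in macrophages (7.02, 5.80 and 3.72), against 3.76% of all genes. H2-DMb2 had 19 and 45 UMIs in B cells, 18 and 40 in dendritic cells and 2 and 0 in macrophages. The endosomal genes went the other way. Of 6 tested, 5 were lower in B cells than in macrophages, against 8.19% of all genes. Among them were the cysteine protease inhibitor Cst3 (−3.97 ± 0.37), cathepsin S, which trims the invariant chain (Ctss, −3.73 ± 0.29), and legumain (Lgmn, −3.38 ± 0.27). In dendritic cells 4 were lower, where 3.16% of all genes were lower, with Lgmn at −2.73 ± 0.25, Ctsb at −2.22 ± 0.23 and Ctss at −0.91 ± 0.23, beside the aspartic protease Ctsd. All 6 were higher in macrophages than in endothelial cells, Ctss by 10.5 ± 0.37, where 17.3% of all genes were higher.

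None of the 7 factors that bind class II promoters (Rfx5, Rfxank, Rfxap, Nfya, Nfyb, Nfyc and Creb1) passed between macrophages and B cells, dendritic cells or neutrophils, nor between the Schwann cell classes or between endothelial and mural cells, and the medians of the list lay between −0.45 and 0.34 in these comparisons, against −0.27 to 0.01 over all genes. The summed level of the 7 was low, at 2.96 and 1.66 in B cells, 1.75 and 1.64 in macrophages and 1.74 and 1.56 in dendritic cells. Neutrophils were at 1.90 and 1.25, with no UMI of 2 of the 7, so modest differences could have been missed. Between macrophages and endothelial cells, Nfya was higher by 0.74 ± 0.29, where 17.3% of all genes were higher. In endothelial cells against satellite glia 3 were higher, Nfya (1.26 ± 0.25), Creb1 (0.74 ± 0.20) and Nfyc (0.60 ± 0.24), against 25.1% of all genes. In satellite glia against neurons 5 were higher, Rfx5 most (1.77 ± 0.37), and Rfxap was lower (−0.61 ± 0.19). Of all genes, 32.5% were higher and 32.9% lower in that comparison. Of 9 genes of costimulation and turnover, 6 were higher and 1 lower in macrophages than in endothelial cells. There 17.3% of all genes were higher and 18.1% lower. The costimulatory ligand Cd86 was higher by 10.0 ± 0.38 and Cd83, which stabilises surface class II, by 6.54 ± 0.53, while Cd274, encoding the inhibitory ligand PD-L1, was lower (−2.78 ± 0.42). Of the 7 genes of the interferon gamma axis, 3 were higher there, among them Irf8 (2.57 ± 0.53) and the receptor chain Ifngr1 (2.13 ± 0.24), and Irf1 was lower (−1.86 ± 0.54). In endothelial cells against mural cells all 9 class I genes were higher (17.2% of all genes were), with H2-K1 at 3.01 ± 0.29 and Psmb9 at 3.01 ± 0.30.

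Over 15 classes and 6833 genes, those whose log level was most like the sum of the 7 were Tnfrsf13b, a receptor of B cells (r = 0.978), Cd83 (0.973), Fgd2 (0.949), Rasgef1b (0.948) and Ctss (0.945). They were followed by Susd3 (0.936), Slamf9 (0.930), Pld4 (0.927), Phf11b (0.924) and Ms4a4c (0.908). Of the 10, 4 had their highest level in dendritic cells (Tnfrsf13b, Rasgef1b, Slamf9 and Phf11b), 3 in macrophages (Cd83, Fgd2 and Ctss) and 3 in monocytes. As a description over classes that share 2 libraries, these r have no test.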

How the data were processed

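Single-cell RNA was measured with 10x Genomics 3' version 3.1 chemistry in 2 libraries of dorsal root ganglia. Per the submitters' processing notes, the authors used CASAVA 1.8, Cell Ranger 5.0.1 and the mouse build mm10, and deposited whole-number UMI counts for each gene and barcode. Their cell filters were not given in the sources used here. The 7 genes and all gene and marker lists were chosen with earlier results of these data known.

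Cells with at least 500 detected genes and under 20% mitochondrial UMIs were kept. Scrublet's own threshold marked 1 and 0 doublets, so the 555 and 1020 cells scoring highest were taken out, a share of 0.8% for each 1000 cells kept. Counts were log-normalised and clustered (2000 variable genes without the class II genes, 30 components, 15 neighbours, Leiden resolution 1) with scanpy 1.11.5, and immune and endothelial clusters were clustered again. A cluster was named only where at least 3 markers of a type were found in 10% or more of its cells and 1.5 times above the rest.

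UMIs were summed per class and library. Of the classes, 12 had at least 20 cells in each library, and their 24 sums entered a single fit with library as a term in edgeR 4.0.16 (quasi-likelihood test, TMM, filterByExpr, 13208 genes, 11 residual degrees of freedom, biological coefficient of variation 0.152). Both classes of a comparison come from the same library, which is why library is a block. Monocytes had too few cells for the test. The threshold was an adjusted p of 0.05. Tested on simulated counts for the comparison of macrophages with endothelial cells (11818 genes), the fit recovered 51% of 2-fold and 100% of 4-fold changes, with 4 false calls in 155. Only well-counted genes were changed there, and all classes had the same profile otherwise. These rates therefore do not cover genes with few UMIs or classes that differ at many genes. Cells were thinned to 2000 UMIs for shares, leaving out shallower cells. Intervals are exact 95% intervals and cover counting error only. The genes most alike were ranked by Pearson's r of log2 of the level plus 0.1, among genes at 0.5 or more in a class in both libraries. The text names all 7 genes, up to 4 genes in each direction for each other list by fold, and the 10 genes most alike. Names of vessel types, sub-clusters and single genes singled out within clusters were chosen after their values were seen. Alternatives were DESeq2 1.42.0, other size factors, no filter on low counts, no block, other clustering and cell filters, marker gates, and the removal of cells with leukocyte marker UMIs. R 4.3.3 and Python 3.11.15 were used. Of the 31253 gene IDs, 31107 were found in GENCODE mouse release 21.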

Additional observations from a re-analysis of the deposited data

How the results depend on the processing

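Over 390 settings of 33 results for single genes, 347 kept their direction and side of the threshold, 41 kept the direction but no longer passed, and 2 reversed. The reversed ones were H2-DMa (0.54) and H2-DMb1 (−0.24) in satellite glia minus neurons with all cells that held a macrophage or B cell marker UMI left out, where few neurons remained. The comparisons of macrophages with endothelial cells and neutrophils kept their counts within 1.5 times under every alternative run, though the neutrophil difference of Cd74 ran from −9.84 to −6.50, and B cells against macrophages ranged from 4 to 7 genes. Depth limits the low classes, where most genes had under 100 UMIs.

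Library as a block paired the 2 classes of each comparison. With no replicate block, 1 gene instead of 4 was called between dendritic cells and macrophages and 1 instead of 3 between endothelial and mural cells, and no other count moved by over 1.5 times. Between dendritic cells and macrophages the count was 2 with DESeq2, 1 at clustering resolution 2, 7 with no filter on low counts, 2 without cells with a macrophage or B cell marker UMI and 7 against the shared macrophage sub-cluster. Between endothelial and mural cells it was 1 with DESeq2, 0 at resolution 0.5, 1 with marker gates, 0 with no doublets removed and 0 under both removals of cells with leukocyte marker UMIs. Endothelial cells against satellite glia fell to 2 and the Schwann cell classes rose to 6 with no doublets removed. Satellite glia against neurons gave 0 with DESeq2, 1 with DESeq2-type size factors and 0 without marker-UMI cells. The cause was not tested in any of these.

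With either library left out, the median log2 difference of the called genes ran from −3.11 to −1.59 for B cells minus macrophages, 0.68 to 1.89 for dendritic cells minus macrophages, 0.91 to 2.05 for endothelial minus mural cells, 0.70 to 1.70 for endothelial cells minus satellite glia, 8.80 to 9.04 for macrophages minus endothelial cells, −10.6 to −8.53 for Cd74 in neutrophils minus macrophages and −4.91 to −2.41 between the Schwann cell classes.

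Of the summed levels, that of macrophages was 187 in the shared sub-cluster and that of B cells 114 without Rag1-positive cells. Monocytes were at 48.6 with at least 1000 genes per cell, 29.4 and 49.3 at resolutions 0.5 and 2, 26.9 with marker gates and 26.3 with no doublets removed. With no doublets removed, endothelial cells were at 0.687 and myelinating Schwann cells at 7.89. Without cells that held a macrophage or B cell marker UMI, endothelial cells were at 1.26, with 2.26 in the 37 cells of replicate 1 and 0.257 in the 133 of replicate 2, so the libraries moved opposite ways, and neurons were at 0.469, and neurons were at 0.183 without cells with a C1q, Cd79 or Ptprc UMI. The share of cells with any of the 7 genes, at 2000 UMIs 92.1% in macrophages, 78.6% in B cells and 7.04% in endothelial cells as means over the libraries, was 86.3%, 71.5% and 4.196% at 1000 UMIs. Without thinning it was 96.0% in macrophages and 18.6% in endothelial cells, and H2-DMa was in 14.9% of myelinating Schwann cells and 34.5% of neurons. The removal by C1q, Cd79 and Ptprc, the removal of Rag1-positive B cells and Siglech-positive dendritic cells and the shared macrophage sub-cluster were alternatives chosen after the data had been seen. The monocyte comparison was not run, and marker gates gave too few dendritic cells for theirs.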
